A study of Mus musculus with 18 samples.

Results

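2i converted EOS3F-24 cells were compared with the full induced pluripotent stem (iPS) lines EOS3F-28 and EOS3F-29, using 3 converted arrays and 6 full-line arrays, 9 of the 18 mouse expression arrays in the series. All 3 lines came from fibroblasts of CD1 mouse embryos given retroviral (pMX) Oct4, Klf4 and Sox2. EOS3F-24, labelled a partial iPS line, was converted in ES cell medium with LIF, a MEK inhibitor at 2 μM and a GSK inhibitor at 12 μM, and the full lines carried no such treatment. Arrested feeder cells, LIF and puromycin at 1 μg/mL were used for all 3 lines, and each is a single line. The labels do not say whether the inhibitors were present at harvest, nor whether the 3 arrays of a group were separate cultures, so the p-values reflect array-to-array spread alone, possibly only technical. The other arrays, 3 each of unconverted EOS3F-24, J1 ES cells and the starting fibroblasts (MEFs), are given below as levels. Since conversion and line of origin go together here, treatment and clone cannot be told apart.

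Mouse pluripotent cells kept in serum and LIF drift between a naive state and states closer to differentiation. The 2i pair blocks MEK, the kinase that activates ERK, and GSK3, the kinase that marks beta-catenin for destruction, and so holds cells in the naive state. Esrrb, Tfcp2l1, Nanog and the Klf factors belong to the network of that state, and Fgf5, Dnmt3b and the Zic factors mark the move out of it. In partially reprogrammed cells this network is only partly on, and 2i is known to carry such cells to full reprogramming.

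Values are log2 expression on the arrays, differences are log2 means of converted cells minus the average of the EOS3F-28 and EOS3F-29 means, and errors are the SE of that difference unless SD is named. A gene was called at an adjusted p under 0.05 (limma, Benjamini-Hochberg over 19937 genes). Array medians lay between 3.92 and 4.11. Over all genes, converted arrays correlated with EOS3F-28 arrays at 0.964 to 0.984 and with EOS3F-29 arrays at 0.954 to 0.986, against 0.960 to 0.985 between the full lines. Feeder and fibroblast genes varied with the replicate number in each group: the mean of 26 such genes was 6.91, 5.79 and 6.10 on converted arrays 1, 2 and 3, 7.14, 6.07 and 6.67 on EOS3F-28 arrays and 7.80, 6.31 and 6.46 on EOS3F-29 arrays, and 8.80 to 9.16 in MEFs. By limma 0 of the 26 were called and 5 had an unadjusted p under 0.05, as had 3518 of all 19937 genes. Under the replicate block 4 of the 26 were called lower, and the median difference of the 26 was -0.46. The number of arrays limits the precision of every value.

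Converted cells differed from the full lines at 1029 genes, of which 790 were higher and 239 lower, 5.16% of those tested. With each array centred on a list of housekeeping genes the median of all genes moved to -0.14 and the split became 368 higher and 690 lower, although 3 of those 19 genes, Hprt, Chmp2a and Sdha, were themselves called higher, and with cyclic loess it was 733 and 433. Without converted array 2 the count was 351, and without converted array 3 it was 376. At least 2-fold differences were called for 73 genes (0.366%), 49 higher and 24 lower, and without converted array 1 there were 134. Converted and full arrays did not overlap for 46 of these 49 rises and 13 of these 24 falls, against 8.27% of all genes. These genes were selected on a difference between the same arrays, which favours a lack of overlap, so these counts are descriptive and add no support. Against both lines, each on its own, 327 genes were called in the same direction (1.64%), 291 of them higher and 36 lower. Leaving out 1 array brought this to 88 (converted array 3), 110 (converted array 2), 185 (EOS3F-28 array 3), 195 (EOS3F-29 array 1), 207 (EOS3F-28 array 1) or 208 (EOS3F-29 array 3). The count was 288 without EOS3F-28 array 2, 302 without EOS3F-29 array 2 and 449 without converted array 1. With 3 arrays on each side, converted cells differed from EOS3F-28 alone at 1030 genes and from EOS3F-29 alone at 493. The full lines themselves, also 3 against 3 arrays, differed at 106 genes (0.532%), and at 43 to 102 genes without 1 full-line array. With the replicate number as a block the counts were 197 between the full lines and 1572 for converted cells against both full lines averaged.

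**Figure D1:**
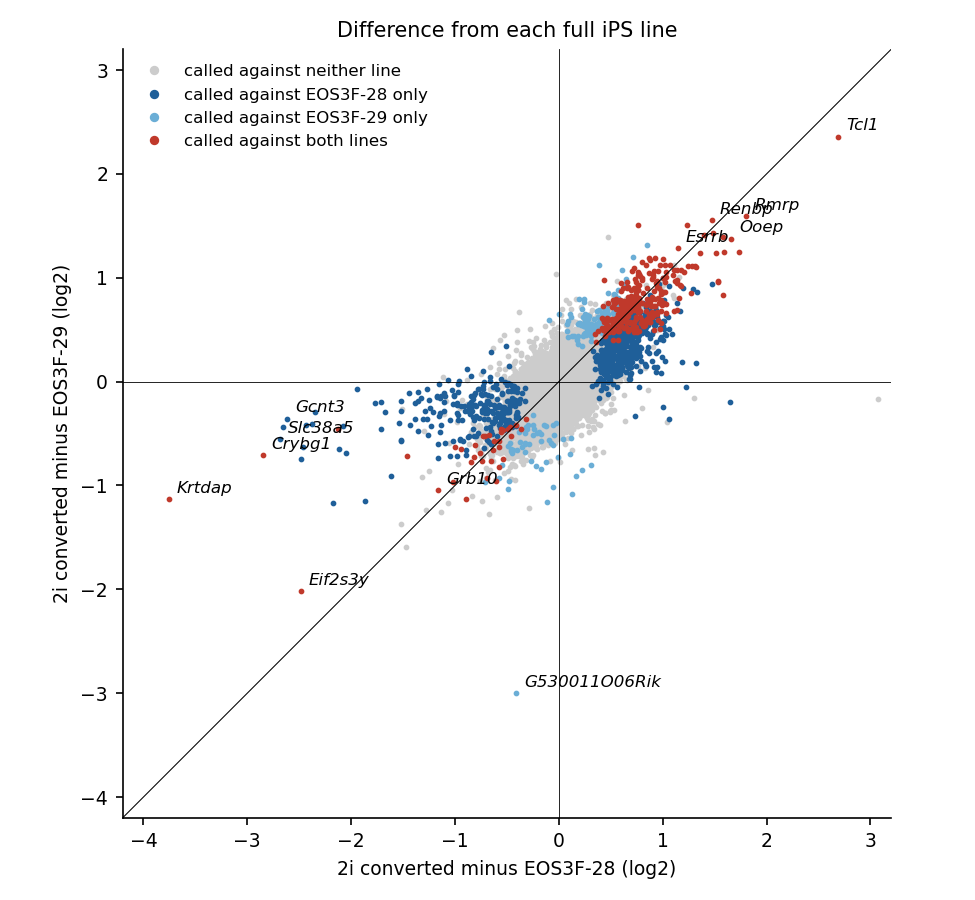
Each point is 1 of 19937 genes, with its log2 difference from EOS3F-28 on the horizontal axis and from EOS3F-29 on the vertical axis; colours mark the lines against which it was called, and the diagonal marks equal differences. Rises such as Tcl1, Ooep and Esrrb lie near the diagonal, whereas falls such as Krtdap, Gcnt3 and Slc38a5 lie far to its left.

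The largest rise was in Tcl1, a coactivator of the kinase Akt that is abundant in oocytes and ES cells. Tcl1 stood at 7.69, 8.13 and 8.22 on the converted arrays, and the full-line arrays ran from 5.16 through a median of 5.39 to 5.96. The groups lay far apart, by 2.52 ± 0.16 (adjusted p = 1.02e-07), and J1 cells averaged 6.79 and unconverted EOS3F-24 cells 3.88. Ooep, which encodes a protein of the maternal complex under the oocyte membrane, stood at 8.35, 8.65 and 8.47 in converted cells, and the full-line arrays lay between 6.48 and 7.50 (median 7.01). Ooep thus rose by 1.52 ± 0.16 (adjusted p = 4.45e-05). Rmrp, the RNA of an RNA-processing enzyme, was at 10.02, 11.42 and 11.60 in converted cells and at 9.13 to 9.80 (median 9.24) in the full lines. Rmrp rose by 1.70 ± 0.30 (adjusted p = 0.00306), with converted array 1 close to the full lines.

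Further rises are named by size or were picked after their values were seen. Tubb2b, a beta-tubulin gene, was at 7.55, 7.88 and 7.85 in converted cells and at 5.89 to 6.73 (median 6.32) in the full lines, a rise of 1.42 ± 0.13 (adjusted p = 1.07e-05). Psma3, a proteasome subunit gene, rose by 1.37 ± 0.16, and its other probe sets gave 1.34 to 1.42. Psma6 and Psmb4, also proteasome subunits, rose by 1.01 ± 0.16 and 1.13 ± 0.20, and Rbx1, a subunit of cullin ubiquitin ligases, by 1.09 ± 0.17 with its other probe set at 0.63. On the X chromosome, Ndufa1, a subunit of respiratory complex I, was at 6.48, 6.76 and 6.78 in converted cells and at 5.10 to 5.49 (median 5.29) in the full lines. Ndufa1 rose by 1.37 ± 0.10 (adjusted p = 3.6e-07), and Hprt, an enzyme of purine salvage, by 1.30 ± 0.13 (adjusted p = 2.61e-05). Renbp, an epimerase of amino sugars, rose by 1.51 ± 0.24, and Pnma5 by 1.49 ± 0.16. Usp11, a deubiquitinating enzyme, was 1.46 ± 0.30 higher (adjusted p = 0.00737), but not without converted array 2 (0.0775) or 3 (0.0708). Lrrc31, 1.41 ± 0.30 higher, likewise lost its call without converted array 2 (0.0905) or 3 (0.113). Hsf2bp, a meiotic recombination factor, rose by 1.25 ± 0.16 and averaged 7.58 in converted and 7.55 in J1 cells.

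**Figure D2:**
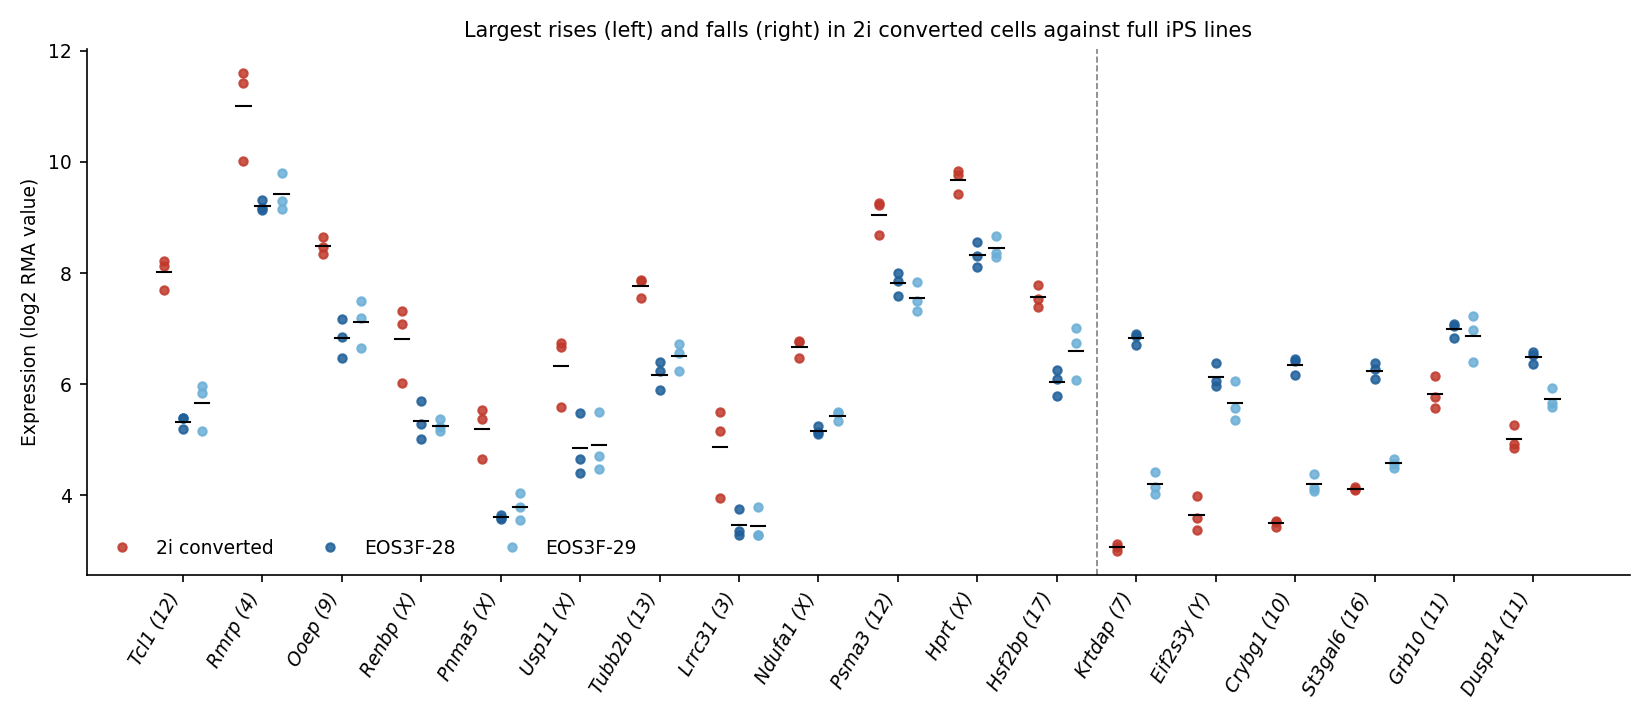
Log2 expression on each array is shown for the 12 largest rises and the 6 largest falls that were called against both lines without overlap; points are arrays, black bars are group means, and the chromosome is in brackets. Among the rises the EOS3F-28 and EOS3F-29 points sit together, and among the falls Krtdap, Crybg1 and St3gal6 are highest in EOS3F-28, with EOS3F-29 between EOS3F-28 and converted cells.

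Genes of the pluripotency network were higher in converted cells or not called. Of 24 core pluripotency genes, 10 rose and 0 fell, with a median difference of 0.44 against -0.0031 over all genes and 3.96% of all genes called higher. Of 20 naive pluripotency genes, 8 rose and 0 fell, with a median of 0.39. Both counts depend on the converted arrays: without array 2 there were 6 core and 4 naive rises, and without array 3 there were 5 and 3. Housekeeping centring left 7 core and 3 naive rises and turned 1 core gene to a fall. Outside chromosomes 8, 12 and X, which are described further on, 6 of 19 core and 7 of 17 naive genes rose.

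Esrrb, a nuclear receptor at the centre of the naive network, was at 7.74, 8.15 and 8.18 in converted cells, against full-line arrays from 6.48 to 7.20 (median 6.82). It rose by 1.21 ± 0.15 (adjusted p = 0.000132) and averaged 8.02 in converted and 7.92 in J1 cells. Tfcp2l1, a transcription factor downstream of LIF and 2i, was at 6.94, 7.29 and 7.53 in converted cells and at 6.15 to 6.63 (median 6.46) in the full lines, a rise of 0.82 ± 0.14 (adjusted p = 0.00181). Zfp42 (Rex1), a marker of ES cells, was at 8.18, 7.80 and 8.08 in converted cells and at 6.86 to 7.13 (median 6.95) in the full lines. The groups did not overlap, and Zfp42 rose by 1.06 ± 0.19 (adjusted p = 0.00355), with means of 8.02 in converted and 8.01 in J1 cells. Fbxo15, an F-box gene long used as a reprogramming reporter, rose by 1.14 ± 0.18 (adjusted p = 0.00106), and Triml2 by 1.05 ± 0.14 (adjusted p = 0.000293). Sall1, a zinc finger partner of Sall4, rose by 0.91 ± 0.13 (adjusted p = 0.000423).

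Calls for other factors of the network were less firm. Nanog was at 9.06, 8.97 and 9.48 in converted cells, above full-line arrays from 8.04 to 8.77 (median 8.42), a difference of 0.77 ± 0.19 (adjusted p = 0.0273). This call ended without converted array 2 (0.068) or 3 (0.201), EOS3F-28 array 1 (0.0645) or 3 (0.0561) or EOS3F-29 array 1 (0.0524), and with cyclic loess (0.0535) or housekeeping centring (0.0597). Tbx3, a factor that sustains self-renewal, was 0.66 ± 0.15 higher (adjusted p = 0.0144), a call lost without converted array 2 (0.0695) or 3 (0.115) and with housekeeping centring (0.0648). Prdm14, which represses lineage and methylation genes, was 0.51 ± 0.12 higher (adjusted p = 0.0154), lost without converted array 2 (0.129) or 3 (0.116) and with housekeeping centring (0.128). Dppa5a, an RNA-binding protein of ES cells, was at 10.22, 11.37 and 11.57 in converted cells and at 9.38 to 10.37 (median 9.78) in the full lines. Its difference of 1.21 ± 0.25 (adjusted p = 0.00726) lost the call without converted array 2 (0.0761) or 3 (0.0835).

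The introduced factors themselves were not called. Sox2 was at 8.82, 8.86 and 8.75 in converted cells, above full-line arrays from 7.81 to 8.56 (median 8.19), a difference of 0.61 ± 0.18 (adjusted p = 0.053) that was called with dim genes left out (0.0363) and with chromosome centring (0.0484). Pou5f1, which encodes Oct4, differed by 0.05 ± 0.14 (95% interval -0.24 to 0.34), with converted cells at 9.64 between EOS3F-28 at 10.04 and EOS3F-29 at 9.15. Klf4 averaged 6.73 in converted cells and 6.73 in the full lines (interval of the difference -0.29 to 0.29). The arrays may read viral as well as cellular transcript for these factors. Klf2, which 2i is known to sustain, differed by 0.37 ± 0.14 (adjusted p = 0.141). The difference in Dppa3, a maternal factor of naive cells, was -0.33 ± 0.18 (adjusted p = 0.394).

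Promoter sequences are shown for Nanog and Zfp42, a pair of network genes that are known targets of Oct4. Both come from RefSeq (GRCm38.p6), cover 300 bases around the gene's start, and were searched on both strands. In the Nanog promoter (chr6:122707239-122707538, plus strand), 1 of the gene's 2 RefSeq starts, capitals mark a match on the reverse strand to the composite Oct4-Sox2 element, which 2 of 32851 promoters hold (0.00609%). In the Zfp42 promoter (chr8:43306960-43307259, minus strand), capitals mark the octamer ATTTGCAT, which 570 of 32851 promoters hold (1.74%). The marked stretches share the letters TTTGCAT, so the motif searches overlap, and a match describes letters only. Each motif was chosen for its gene, so the shares of promoters do not measure how unusual these matches are.
Nanog: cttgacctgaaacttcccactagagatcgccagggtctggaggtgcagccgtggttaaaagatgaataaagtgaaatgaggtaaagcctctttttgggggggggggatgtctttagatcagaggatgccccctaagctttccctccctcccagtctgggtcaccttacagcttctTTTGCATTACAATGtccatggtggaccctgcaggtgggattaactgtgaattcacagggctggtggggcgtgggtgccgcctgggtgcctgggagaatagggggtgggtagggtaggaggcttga
Zfp42: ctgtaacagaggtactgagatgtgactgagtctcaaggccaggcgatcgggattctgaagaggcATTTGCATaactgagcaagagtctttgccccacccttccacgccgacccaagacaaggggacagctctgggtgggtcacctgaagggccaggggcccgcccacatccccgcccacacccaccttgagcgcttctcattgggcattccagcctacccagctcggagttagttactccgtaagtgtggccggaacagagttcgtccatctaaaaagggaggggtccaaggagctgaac

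Of 23 primed and formative genes, 5 fell and 3 rose, with a median of -0.11, against 1.2% of all genes called lower and 3.96% higher. Fgf5, the ligand that marks the post-implantation epiblast, was at 4.07, 3.94 and 4.19 in converted cells and at 4.22 to 5.07 (median 4.84) in the full lines. It fell by 0.70 ± 0.13 (adjusted p = 0.00339) and averaged 4.07 in converted and 4.16 in J1 cells. Dnmt3b, a de novo DNA methyltransferase, was at 6.84, 6.35 and 6.44 in converted cells and at 7.04 to 7.52 (median 7.19) in the full lines. It fell by 0.67 ± 0.14 (adjusted p = 0.00817), a call lost without converted array 2 (0.0873) or 3 (0.0687). The other falls were Zic2, Zic5 and Pim2, at -0.42 to -0.61. Without 1 array the falls numbered 1 (converted array 2), 2 (converted array 3) or 3 (EOS3F-28 array 1 or 3). Otx2, a driver of exit from the naive state, was not called at -0.12 ± 0.20 (adjusted p = 0.843).

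The 3 rises in that list were Lefty1, Lefty2 and Fgf15, and the Lefty genes, secreted inhibitors that Nodal itself induces, also led the Nodal pathway list, where 4 of 16 genes rose and 0 fell, against 3.96% of all genes called higher. Lefty2 was at 8.13, 7.71 and 8.27 in converted cells and at 6.64 to 7.08 (median 7.01) in the full lines, 1.09 ± 0.23 higher (adjusted p = 0.00982), a call lost without converted array 3 (0.0844). Lefty1 was 0.96 ± 0.23 higher (adjusted p = 0.0204), a call lost without converted array 2 (0.09) or 3 (0.149) or EOS3F-28 array 3 (0.0508). Without converted array 3 no Nodal pathway gene was called higher, and without array 2 there were 2; in the primed list 0 rose without array 3 and 2 without array 2.

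In the lists of the pathways that the inhibitors address, 4.17% of ERK and 13.6% of Wnt genes were called, against 5.16% of all genes. Of 24 ERK response and feedback genes only Myc was called. It was at 5.96, 4.17 and 4.59 in converted cells and at 5.54 to 7.21 (median 6.79) in the full lines, which overlap, a difference of -1.67 ± 0.35 (adjusted p = 0.00888) lost without converted array 2 (0.101) or 3 (0.0769). The feedback genes Dusp6, a phosphatase of ERK, and Spry4, an inhibitor of receptor signalling, were at -0.14 ± 0.22 and -0.27 ± 0.22, and the immediate early gene Egr1 at -0.19 ± 0.17, none called. Of 22 Wnt targets and Tcf/Lef factors, 3 fell and 0 rose, against 1.2% of all genes called lower. All 3 encode the DNA-binding partners of beta-catenin: Lef1 was at 4.68, 4.54 and 4.36 in converted cells and at 5.16 to 5.84 (median 5.26) in the full lines, and fell by 0.81 ± 0.14 (adjusted p = 0.00287). Tcf7l1, a repressor of the naive network, was at -0.46 ± 0.11 (adjusted p = 0.0173), lost without converted array 2 (0.0975) or 3 (0.132), and Tcf7l2 at -0.43 ± 0.09 (adjusted p = 0.0128), lost without the same arrays (0.0933 and 0.0565), so that 1 of the 3 calls held without either. The feedback target Axin2 was at -0.04 ± 0.10 (interval -0.25 to 0.16) and Sp5 at -0.01 ± 0.15 (interval -0.32 to 0.30). Of 17 LIF and STAT3 genes 3 were called higher, against 3.96% of all genes. They were Tfcp2l1, the kinase gene Pim3 (0.50 ± 0.10, lost without converted array 2, adjusted p = 0.0862) and Klf5 (0.53 ± 0.15, lost without converted array 2, 0.212, or 3, 0.257, among others). The lists also gave BMP and Id genes 0 calls of 17 by limma (1 with an unadjusted p under 0.05, against 3518 of all 19937 genes).

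**Figure D3:**
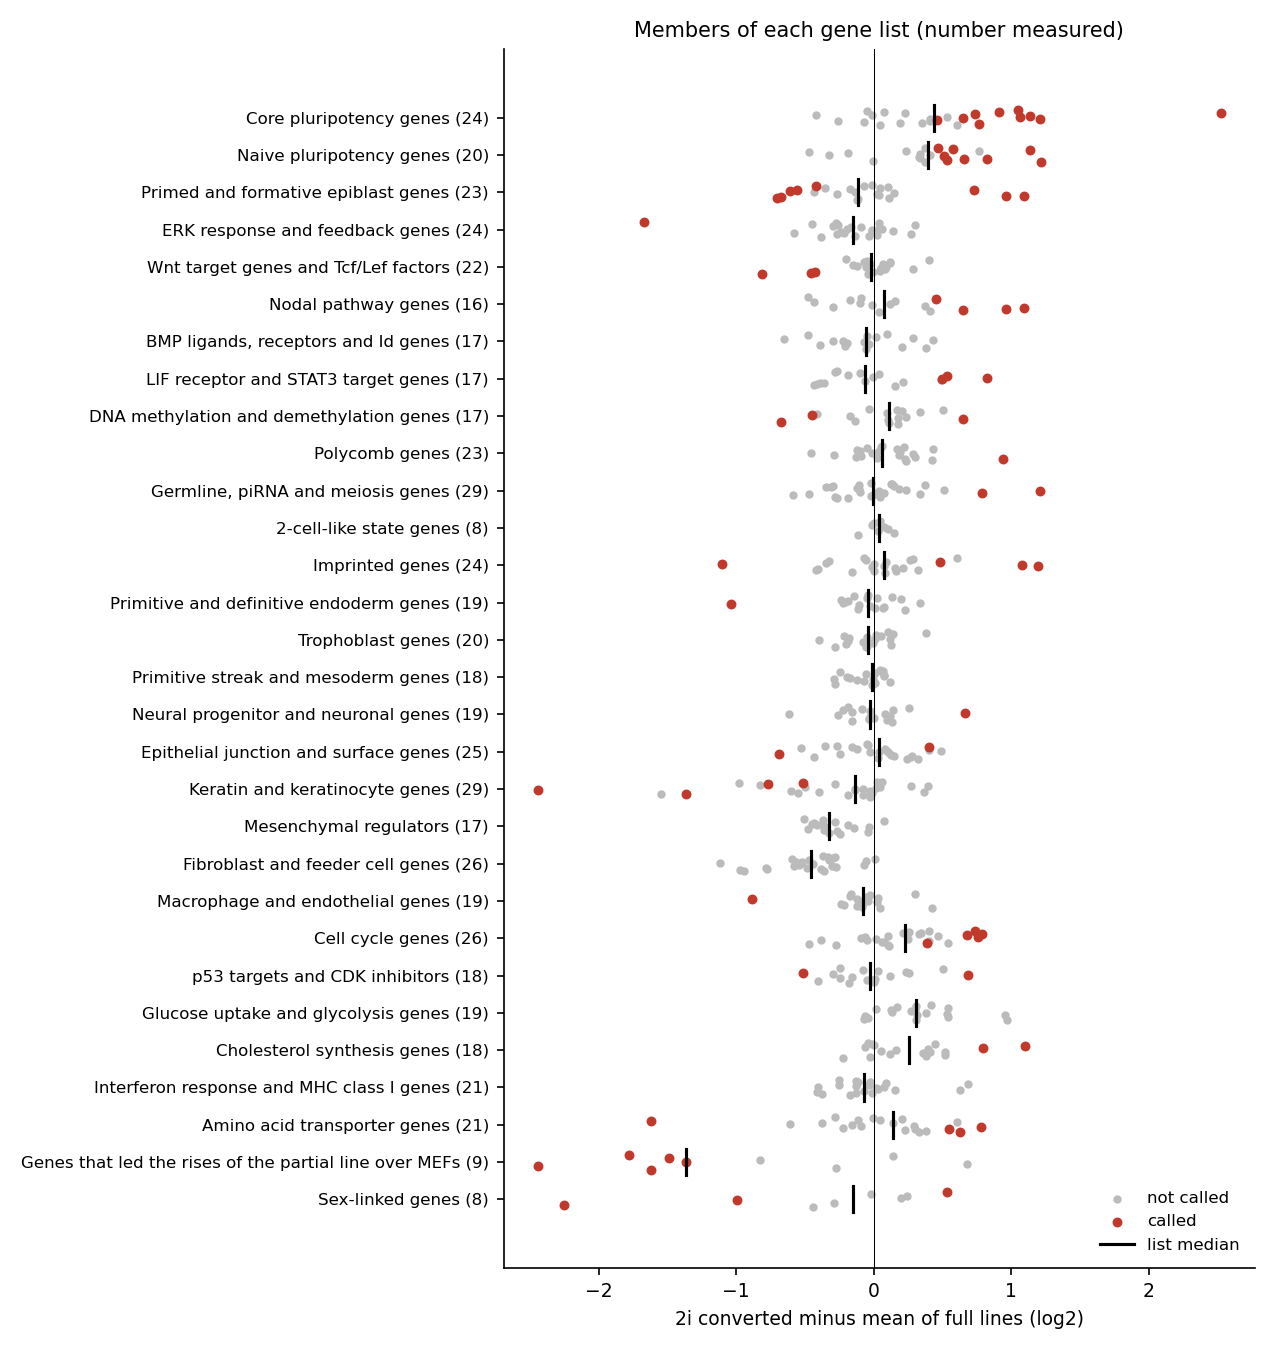
Each row is a gene list with its number of measured members, each point a member's log2 difference of converted cells minus the mean of the full lines, red where called, with the list median as a black bar. Core and naive pluripotency medians lie at 0.44 and 0.39, and the fibroblast and feeder median at -0.46 with no call.

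Among chromatin and imprinting genes the calls were few. Eed, a core subunit of polycomb complex PRC2, was at 7.99, 8.01 and 8.20 in converted cells and at 7.02 to 7.21 (median 7.14) in the full lines, a rise of 0.94 ± 0.13 (adjusted p = 0.000371), but its other probe set gave -0.01. Eed was the only call of 23 polycomb genes (4.35%), near the 5.16% of all genes. Of 24 imprinted genes 3 rose and 1 fell, against 3.96% and 1.2% of all genes. Mest, a paternally expressed hydrolase gene, was at 7.67, 7.54 and 7.71 in converted cells and at 6.19 to 6.67 (median 6.46) in the full lines, a rise of 1.19 ± 0.15 (adjusted p = 0.00015). Peg10, also paternally expressed, was 1.08 ± 0.22 higher (adjusted p = 0.00734), lost without converted array 3 (0.0578). Grb10, an adaptor that restrains insulin signalling, was at 6.14, 5.58 and 5.76 in converted cells and at 6.40 to 7.22 (median 7.02) in the full lines, and fell by 1.10 ± 0.15 (adjusted p = 0.000418). Meg3, the noncoding RNA of the Dlk1 domain whose silencing marks weak iPS lines, was at 0.08 ± 0.13 and not called.

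Of 29 germline genes, Syce2 and Sycp1, both components of the synaptonemal complex of meiosis, rose and 0 fell, or 6.90% called, near the 5.16% of all genes. Sycp1 was at 4.63, 4.51 and 4.34 in converted cells and at 3.46 to 3.91 (median 3.75) in the full lines, a rise of 0.79 ± 0.11 (adjusted p = 0.000448), with J1 cells lower than either at 2.84. Syce2 rose by 1.21 ± 0.23 (adjusted p = 0.0042). Among 26 cell cycle genes 5 rose and 0 fell, against 3.96% of all genes called higher, with 1 left without converted array 2 and 0 without array 3. By limma 0 of 19 glycolysis genes were called and 9 had an unadjusted p under 0.05, against 3518 of all 19937 genes, with a median of 0.30. Called higher were 5 of them without converted array 1 or with the replicate block, 4 without EOS3F-29 array 2 and 1 without EOS3F-28 array 2. There were also 0 calls by limma in 5 further lists, with unadjusted p under 0.05 for 3 of 20 trophoblast genes, 2 of 18 primitive streak and mesoderm genes, 0 of 8 genes of the 2-cell-like state, 3 of 21 interferon and MHC genes and 2 of 17 mesenchymal regulators.

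Genes of other lineages and of metabolism gave scattered calls, to be read against 5.16% of all genes called, 3.96% higher and 1.2% lower. The endoderm list and the macrophage and endothelial list, each with 5.26% called, were near that share. Dab2, an endocytic adaptor of primitive endoderm, was the only call of 19 endoderm genes, at 4.88 in converted cells, 6.40 in EOS3F-28 and 5.45 in EOS3F-29, and fell by 1.04 ± 0.19 (adjusted p = 0.00306). Tek, an endothelial receptor kinase, was the only call of 19 macrophage and endothelial genes, and fell by 0.88 ± 0.14 (adjusted p = 0.00151). Of 18 cholesterol synthesis genes, the X-linked Ebp (1.10 ± 0.19, adjusted p = 0.0025) and Nsdhl (0.79 ± 0.22, adjusted p = 0.0461, lost without converted array 2 at 0.245 or 3 at 0.259) were called higher, and the list median was 0.26. Outside chromosomes 8, 12 and X, 0 of its 14 members were called and the median was 0.08. Of 21 amino acid transporter genes 3 were called higher and 1 lower. Slc1a3, a glutamate transporter, rose by 0.63 ± 0.11 (adjusted p = 0.00354), and the call for Slc3a2, a shared subunit of amino acid exchangers, at 0.55 ± 0.12 (adjusted p = 0.013) was lost without converted array 2 (0.124) or 3 (0.116).

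In further lists most calls ended without converted array 3, and the adjusted p without it is given beside each difference. Many ended without other arrays too: of the 9 leave-outs, Tubb3, Esrp1 and Perp lost the call in 7, and Dsg2, Kdm6a, Pmaip1 and Mbd1 in 6. The adjusted p was highest elsewhere for Esrp1 (0.213 without converted array 1) and Pmaip1 (0.385 without converted array 2). Over all genes 3.96% were called higher and 1.2% lower. Of 17 DNA methylation genes, Dnmt3b and Mbd1 were called lower and Uhrf2 higher (0.65 ± 0.14, adjusted p = 0.112 without that array). Of 19 neural genes 1 was called (5.26%, near the 5.16% of all genes), namely Tubb3, a neuronal tubulin (0.67 ± 0.18, 0.213 without that array). Of 25 epithelial genes Dsg2 was called higher (0.41 ± 0.11, 0.194 without it) and Esrp1 lower (-0.69 ± 0.19, 0.0731 without it). Of 18 p53 targets and CDK inhibitors Pmaip1 was called higher (0.68 ± 0.19, 0.113 without it) and Perp lower (-0.52 ± 0.14, 0.2 without it). Of 29 keratin and keratinocyte genes 4 were called lower and 0 higher, namely Krtdap, Krt13, Dsg3 and Perp, against 1.2% of all genes called lower. There were 8 lower with cyclic loess, housekeeping centring, only the compared arrays, the replicate block or chromosome centring, and 2 to 5 without 1 array, and of the 4 Krtdap and Krt13 kept their calls in all leave-outs. Of 8 sex-linked genes 2 were called lower and 1 higher, the X-linked demethylase gene Kdm6a (0.53 ± 0.14, 0.198 without that array).

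Many of the largest falls were in genes that stood high in EOS3F-28. Krtdap, a gene of keratinocyte differentiation, was at 3.07 ± 0.06 in converted cells, at 6.82 ± 0.11 in EOS3F-28 and at 4.20 ± 0.20 in EOS3F-29 (SD, n = 3 each), and at 8.72 in unconverted EOS3F-24 cells. Its difference was -3.76 from EOS3F-28 (adjusted p = 1.17e-09), -1.13 from EOS3F-29 (adjusted p = 0.00271) and -2.44 ± 0.16 from their average. Gcnt3, a mucin glycosyltransferase, was at 3.75, 3.35 and 3.40 in converted cells, 6.12 ± 0.06 in EOS3F-28 and 3.86 ± 0.02 in EOS3F-29. Gcnt3 was thus called against EOS3F-28 and against the average (-1.49 ± 0.16) but not against EOS3F-29 (-0.36, adjusted p = 0.391). The amino acid transporter Slc38a5 (-1.62 ± 0.18) and the keratin Krt13 (-1.37 ± 0.20) showed the same order. Slc38a5 averaged 4.96 in converted cells, 7.65 in EOS3F-28 and 5.52 in EOS3F-29, and Krt13 3.64, 5.68 and 4.33. Crybg1 was at -1.78 ± 0.12, but its other probe set gave 0.06.

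These genes had been listed because they led the difference of unconverted EOS3F-24 cells from MEFs on these arrays, so their direction is not independent evidence. All 9 members were measured, and 5 fell and 0 rose, against 1.2% of all genes called lower and 3.96% higher. Their median was -1.37, and it was -2.04 against EOS3F-28 and -0.56 against EOS3F-29. Of the 24 genes that fell at least 2-fold, 20 averaged at least 1 higher in unconverted than in converted EOS3F-24 cells. They were selected for low converted values, which favours that count, so it is descriptive. Of the same 24, 13 were called higher in EOS3F-28 than in EOS3F-29, whereas by limma 0 of the 49 rises differed between the lines (9 at an unadjusted p under 0.05). Over all 19937 genes 106 differed between the lines (0.532%), 60 of them higher in EOS3F-28. Car2, a carbonic anhydrase, fell by 1.61 ± 0.18, Tgm3, a transglutaminase, by 1.55 ± 0.27, Lbp, a lipopolysaccharide-binding protein, by 1.39 ± 0.25 and Gda, a guanine deaminase, by 1.38 ± 0.22, all 4 with EOS3F-28 above EOS3F-29. St3gal6, a sialyltransferase, fell by 1.29 ± 0.09 and Dusp14, a phosphatase, by 1.09 ± 0.12, both also against EOS3F-29 alone. Timp3, an inhibitor of matrix proteases that fibroblasts make, was at -1.51 ± 0.29 (adjusted p = 0.00533), lost without converted array 2 (0.0652); the fibroblast and feeder gene mean was lower on the converted arrays too, 5.79 to 6.91 against 6.07 to 7.80, and its part in this difference was not tested. Col1a2, a collagen gene of the same list, was at -0.97 ± 0.46 (adjusted p = 0.279).

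MicroRNA genes of the Mir302 and Mir367 cluster, active in pluripotent cells, had 3 of 5 members called lower, against 1.2% of all genes. Their dim probe sets read the primary transcript or hairpin rather than the mature RNA, so members of 1 cluster may not be separate observations. The cluster was picked after its values were seen. Mature 3p sequences from RefSeq (GRCm38.p6, chromosome 3, plus strand) are given because they fall into 3 seed groups, with the seed, bases 2 to 8, in capitals. Mir302b and Mir302d share a seed, that of Mir302c is shifted by a base, and that of Mir367 differs. Mir302a is named only. The loci are chr3:127545275-127545297, chr3:127545406-127545427, chr3:127545665-127545687 and chr3:127545779-127545800 in the order listed.
Mir302b: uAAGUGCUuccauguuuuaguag
Mir302c: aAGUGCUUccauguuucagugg
Mir302d: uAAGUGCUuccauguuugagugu
Mir367: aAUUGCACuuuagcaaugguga

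Mir302b was at 3.64, 2.26 and 2.51 in converted cells and at 3.32 to 5.25 (median 4.54) in the full lines, which overlap. The difference was -1.53 ± 0.37 (adjusted p = 0.0209), and J1 cells (2.43) and unconverted EOS3F-24 cells (2.23) were also low. It lost the call without converted array 2 (0.177) or 3 (0.137), with only the compared arrays in the fit (0.11) and with the trended robust fit (0.0642). Mir302c was -1.20 ± 0.33 (adjusted p = 0.0437), lost without converted array 2 (0.226) or 3 (0.192), EOS3F-28 array 1 (0.0945) or 3 (0.0771) or EOS3F-29 array 3 (0.0586). Mir367 was -0.63 ± 0.15 (adjusted p = 0.0217), lost without converted array 2 (0.152) or 3 (0.104) or EOS3F-28 array 1 (0.0525) or 3 (0.0517). Mir302a (-0.86 ± 0.25, adjusted p = 0.0599) and Mir302d (-0.77 ± 0.29, adjusted p = 0.152) were not called, but Mir302a was called without EOS3F-28 array 2 (0.0114) or EOS3F-29 array 2 (0.00899), and Mir302d without EOS3F-29 array 2 (0.00538).

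The rises were spread unevenly over the chromosomes. Chromosomes 8, 12 and X were picked out by these same values, so their shares are descriptive. Among 7466 genes with a mean of at least 5, 8.49% were called higher, but 113 of 423 genes of chromosome 8 (26.7%), 67 of 268 of chromosome 12 and 55 of 230 of the X (23.9%) were. Their medians were 0.27, 0.25 and 0.19, whereas the other 17 chromosomes had medians of -0.04 to 0.05 and 3.79% to 8.30% of genes called higher. These chromosomes hold 12.3% of the genes and 37.1% of the 634 rises. They also hold 27 of the 49 rises of at least 2-fold: 4 on chromosome 8, 10 on 12 and 13 on the X, among them Tcl1, Psma3 and Esrrb on 12, Zfp42, Triml2 and Syce2 on 8, and Ndufa1, Hprt, Renbp and Pnma5 on the X. Rises numbered 45 on chromosome 8, 35 on 12 and 35 on X without converted array 2, where all 7466 genes gave 229. Without converted array 3 they numbered 48, 36 and 33, of 225 over all these genes. Without 1 full-line array they numbered 89 to 112, 58 to 74 and 45 to 59, of 474 to 694. The medians stayed between 0.22 and 0.28 on 8, 0.21 and 0.30 on 12 and 0.14 and 0.22 on X in all leave-outs.

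Array by array, medians relative to the full-line mean were 0.23 to 0.28 on chromosome 8 in converted cells, -0.05 to -0.04 in EOS3F-28 and -0.09 to 0.11 in EOS3F-29. J1 arrays were also high there (0.32 to 0.45) and unconverted EOS3F-24 arrays were at 0.12 to 0.13, against 0.13 to 0.14 for these arrays over the chromosomes other than 8, 12 and X. On chromosome 12 converted arrays were at 0.22 to 0.32, EOS3F-28 at -0.01 to 0.07, EOS3F-29 at -0.22 to 0.12, unconverted EOS3F-24 at 0.13 to 0.19 and J1 at -0.07 to 0.01. Centring each chromosome of each array, an alternative added after the data were seen, kept 28 of 126 rises on chromosome 8, 32 of 81 on 12 and 30 of 85 on the X, against 412 of 498 elsewhere. It moved the overall split to 557 higher and 699 lower.

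**Figure D4:**
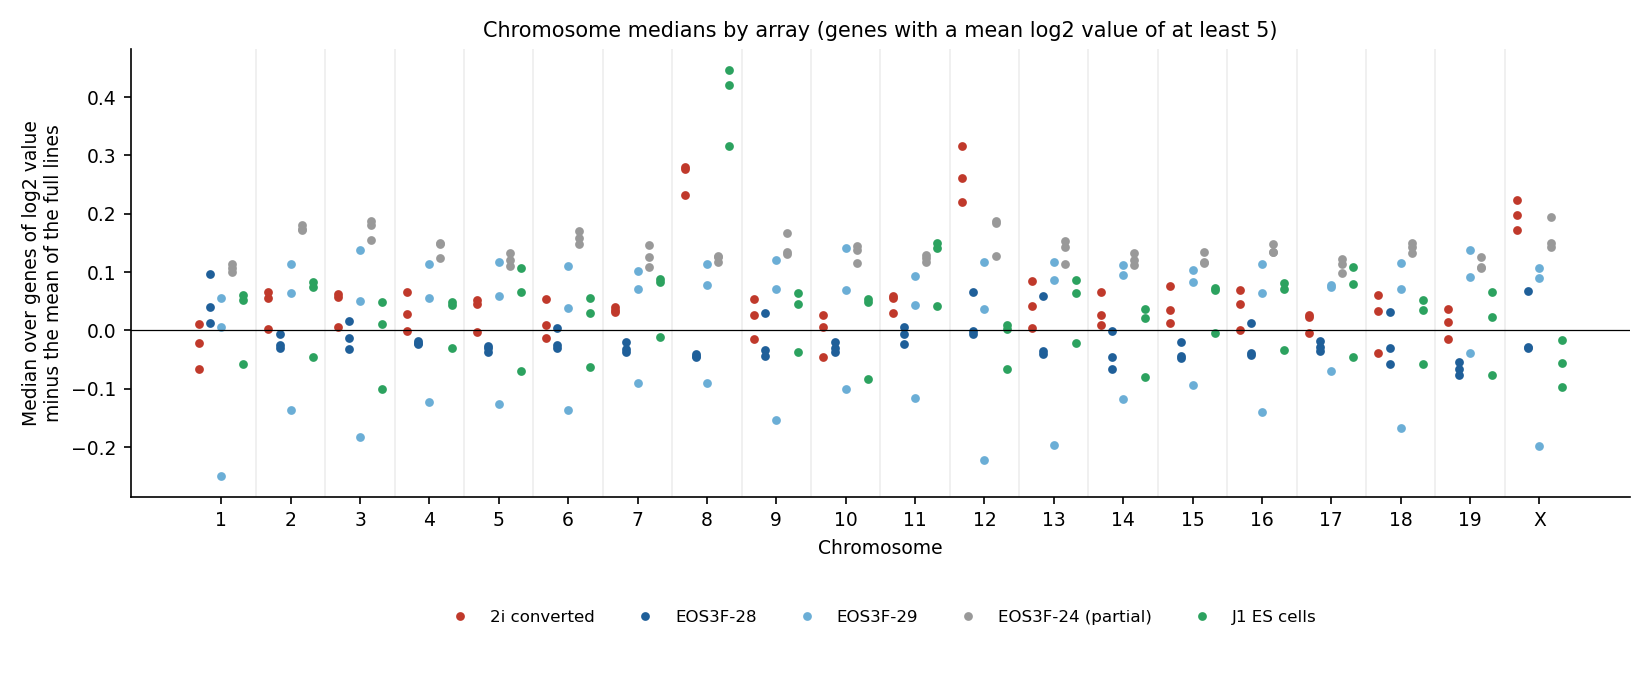
Points give, for each array and chromosome, the median over genes of the log2 value minus the mean of the full lines, for converted cells, EOS3F-28, EOS3F-29, unconverted EOS3F-24 and J1 cells. Converted arrays stand at 0.23 to 0.28 on chromosome 8 and 0.22 to 0.32 on chromosome 12, and J1 arrays at 0.32 to 0.45 on chromosome 8.

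The X chromosome was not uniform, but the cut after 3 eighths was placed with the values known, so the contrast between its parts is descriptive. Its first 3 eighths in gene order held 41 rises in 87 genes (47.1%) with a median of 0.52, and its last 5 eighths 14 in 143 (9.79%) with a median of 0.03. The last eighth lay lower, with a median of -0.29 and 5 of 28 genes called lower, but there converted arrays stood at -0.27 to -0.22 and EOS3F-28 arrays at -0.27 to -0.18, whereas EOS3F-29 arrays reached 0.42. In those 28 genes the full lines differed at 7. Hprt and Renbp rose on the X, while Xist, the RNA that silences an X chromosome, was at 5.21, 4.74 and 4.71 in converted cells and at 4.90 to 6.12 (median 5.20) in the full lines, -0.44 ± 0.20 (adjusted p = 0.255).

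**Figure D5:**
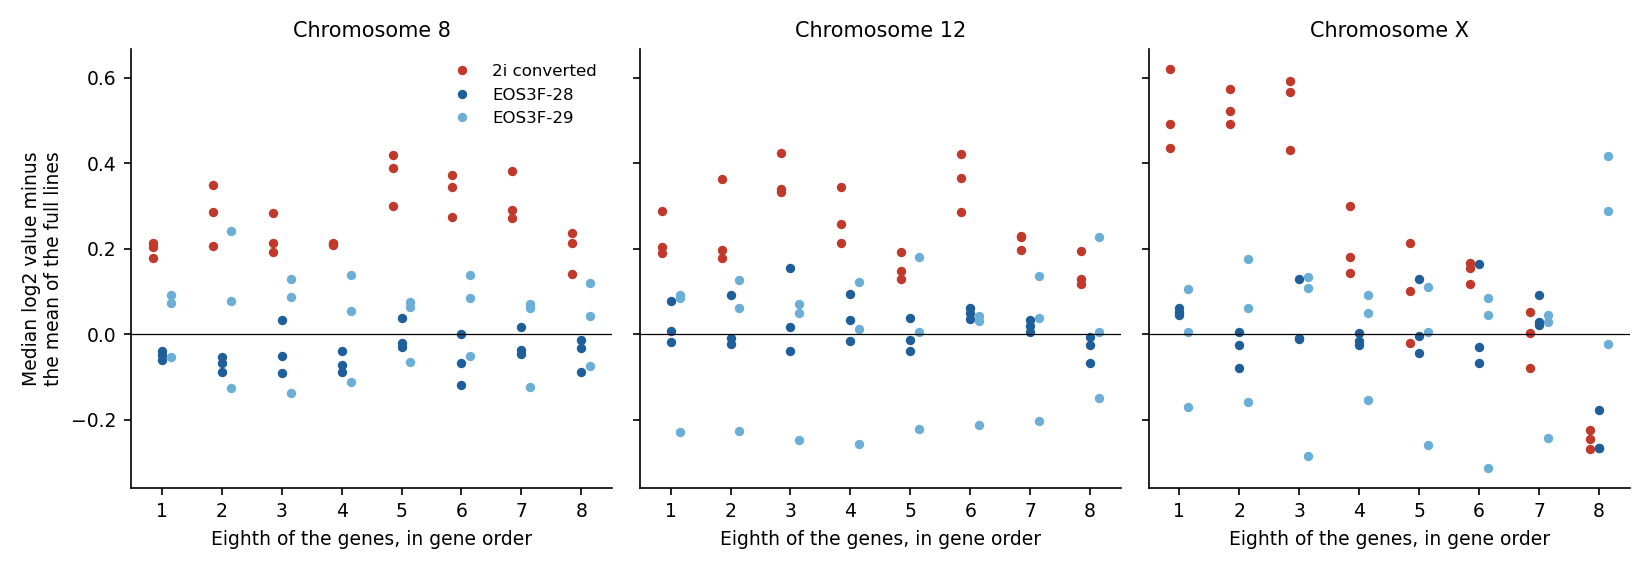
For chromosomes 8, 12 and X, each cut into 8 groups of genes in gene order, points give the per-array median of log2 value minus the full-line mean. On the X, converted arrays lie at 0.43 to 0.62 in the first 3 groups and between -0.27 and -0.22 in the last, where the EOS3F-28 arrays lie too.

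The Y-linked genes Eif2s3y and Uty fell in converted cells. Eif2s3y, the Y copy of a translation initiation factor subunit, was at 3.98, 3.37 and 3.59 in converted cells and at 5.35 to 6.38 (median 6.01) in the full lines, and fell by 2.25 ± 0.16 (adjusted p = 2.67e-07), also called against each line. Unconverted EOS3F-24 cells were already low at 4.02, and J1 cells stood at 6.36. Uty, the Y copy of a histone demethylase family gene, was at 3.87, 3.32 and 3.29 in converted cells and at 4.11 to 4.78 (median 4.54) in the full lines, and fell by 1.00 ± 0.17 (adjusted p = 0.00196), with unconverted cells at 3.62 and J1 cells at 4.88. Kdm5d, at -0.29 ± 0.12 (adjusted p = 0.199), was dim in all of these groups.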

How the data were processed

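Per the labels' protocols, RNA came from RNeasy columns and sense-strand target over whole transcripts carried the biotin label. The deposited values are log2 expression per probe set, made with RMA by the authors, per the submitters' processing notes, with its version, genome build and annotation not given in the sources used here; RMA removes shifts common to most genes. Of 34760 probe sets, 21640 carried 1 gene symbol in the platform annotation, 1321 several and 11799 none, and each of 19937 genes kept its brightest probe set. Chromosomes and gene order came from the RefSeq GRCm38.p6 gene table.

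Groups came from sample titles. limma 3.58.1 in R 4.3.3 fitted 1 mean per group to all 18 arrays, with Benjamini-Hochberg adjustment over all genes, and was tested on simulated data. Of 625 genes in 31 lists, 567 were measured. Members, lists and tests were chosen with earlier results of these data known. Named genes were the 12 largest rises and falls called at 2-fold, against both lines and without overlap (6 falls met this), the 2 largest called members per list, all members of the partial-line and sex-linked lists, and a set of pluripotency and signalling genes; the other named genes, such as further 2-fold calls and the microRNAs, were chosen after their values were seen. Alternatives were cyclic loess, housekeeping centring, only the compared arrays, a trended robust fit, dim genes left out, other probe set rules, the replicate block, 1 full line at a time, leaving out each array, and chromosome centring, which was added after seeing the data. Deviations of same-numbered arrays from their group means correlated at 0.542, 0.639 and 0.149 between the full lines. The main fit took no account of the array number in any comparison, and the replicate block did so as an alternative. Between converted arrays and those of EOS3F-28 and EOS3F-29 the correlations were 0.520 and 0.579 at number 1. They were 0.432 and 0.484 at number 2, and -0.115 and -0.0497 at number 3.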

Additional observations from a re-analysis of the deposited data

Results flagged for a closer look

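For 16 named genes the difference of converted cells from EOS3F-28 departed from that from EOS3F-29, which is the difference between the full lines themselves (limma, adjusted p at most 0.0267). EOS3F-28 was higher for 15 of them: Krtdap by 2.63, Gcnt3 by 2.26, Tgm3 by 2.22, Crybg1 by 2.14, Slc38a5 by 2.13, Lbp by 1.96, Car2 by 1.73, St3gal6 by 1.67, the surface glycoprotein gene Msln by 1.65, Gda by 1.46, Krt13 by 1.36, the nuclear envelope gene Syne2 by 1.26, the neuronal gene Stmn2 by 1.06, Pou5f1 by 0.90 and Dusp14 by 0.75. The clone-named gene G530011O06Rik went the other way, at -2.59. No group holds enough arrays for a test of single outlying arrays.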

How the results depend on the processing

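Of 101 named genes that were called, 65 kept the call without any 1 of the 9 arrays, 33 lost it without converted array 2 and 34 without converted array 3, and 0 reversed. The count of called genes was 1572 with the replicate block, 493 when EOS3F-29 stood alone for the full lines and 351 to 1166 without 1 array. The count at 2-fold was 139 with all probe sets tested, 144 when EOS3F-28 stood alone and 54 to 134 without 1 array. The count called against both lines was 211 with housekeeping centring, 204 with only the compared arrays, 539 with the replicate block and 88 to 449 without 1 array. The count between the full lines was 49 with dim genes left out, 197 with the replicate block and 43 to 102 without 1 full-line array. Same-numbered converted and full arrays deviated together at number 1 (correlations of 0.520 and 0.579) and number 2 (0.432 and 0.484), but not at number 3. The block ended no call of a named gene.

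Reversals all fell on genes that were not called. When EOS3F-28 stood alone these were Axin2 (0.023), Dnmt3l (0.12), Dusp6 (0.071), Egr1 (0.060), Meg3 (-0.080), Pou5f1 (-0.40), Sp5 (0.10) and Stmn2 (-0.39), and with EOS3F-29 Kdm5c (0.037), Klf4 (0.020) and Otx2 (0.25). Chromosome centring reversed Cdh1 (-0.044), Ddx3x (-0.12), Eif2s3x (-0.17), Klf4 (0.019) and Meg3 (-0.17), cyclic loess Meg3 (-0.023) and Pou5f1 (-0.062), and housekeeping centring Meg3 (-0.057) and Pou5f1 (-0.091). Without 1 array, ranges crossed 0 for Axin2 (-0.088 to 0.0088), Dusp6 (-0.27 to 0.070), Kdm5c (-0.054 to 0.031), Klf4 (-0.050 to 0.051), Meg3 (-0.0012 to 0.19), Otx2 (-0.26 to 0.050), Pou5f1 (-0.019 to 0.10), Saa3 (-0.92 to 0.26), Sp5 (-0.085 to 0.092) and Spry4 (-0.63 to 0.072). The cause of these changes was not tested.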
